A study of Mus musculus with 15 samples.

Results

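The genes described here are 34 genes of cholesterol and fatty acid synthesis in mouse CD8+ T cells. They were chosen by name, as the SREBP pathway, the steps of sterol and fatty acid synthesis, and genes of cholesterol transport and efflux. They are 34 of the 27019 rows of the count table, and all 34 were among the 16057 genes with enough counts to be tested. By role, 5 are regulators, 7 act in the mevalonate steps, 11 in the sterol steps, 3 in sterol transport and efflux, and 8 in fatty acid synthesis and modification. Earlier results of these data were known when the genes were chosen, so shares above those of all tested genes are not independent evidence.

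Cells make cholesterol from acetyl-CoA through mevalonate, isoprenoid diphosphates, squalene and lanosterol, and they make fatty acids from the same acetyl-CoA. Transcription of both routes is driven by the SREBP factors, which SCAP carries out of the endoplasmic reticulum when membrane sterol is low and which the INSIG proteins hold back when it is high. When sterol is abundant, LXR factors switch on the efflux pumps Abca1 and Abcg1. Resting T cells make little lipid, and T cells that enter the cell cycle after antigen are known to switch on both routes for new membrane.

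Poly(A) RNA was sequenced from splenic CD8+ T cells of C57BL/6 mice, 8 to 10 weeks of age. All mice carried the OT-I transgene, whose T cell receptor binds the ovalbumin peptide OVA257-264. There were 4 groups of 2 libraries, namely Susd2-/- at day 3, WT at day 3, Susd2-/- at day 0 and WT at day 0. The product of Susd2 is a membrane protein that carries a sushi domain. At day 0 the cells were isolated with magnetic beads from untreated spleens, and at day 3 from splenocytes that had been cultured with the peptide for 3 days. No culture without peptide was analysed, so 3 days of culture and stimulation by the peptide cannot be told apart. The peptide was given to whole splenocytes, so in the Susd2-/- cultures the other spleen cells came from Susd2-/- mice too. How the Susd2 allele was made is not given in the sources used here.

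Library totals ran from 26829807 to 53846911 counts. Susd2 had 0 and 2 counts in the Susd2-/- libraries at day 3, against 16 and 10 in the WT libraries, and 1 and 3 counts in the Susd2-/- libraries at day 0, against 90 and 80 in the WT libraries. The CD8 T cell marker Cd8a stood at 719 and 729 CPM in Susd2-/- at day 3, 757 and 767 CPM in WT at day 3, 1226 and 1195 CPM in Susd2-/- at day 0 and 1224 and 1255 CPM in WT at day 0. CPM here is a count scaled to a common library size after TMM normalisation, which adjusts each library total by a factor, so it is no share of the raw total. Some markers of other cells differed between the genotypes at day 0. The 12 macrophage markers summed to 153 and 146 CPM in Susd2-/- libraries, against 73.0 and 71.9 CPM in WT libraries, and 8 of 12 were higher. The 4 NK cell markers summed to 12.9 and 12.6 CPM in Susd2-/- libraries, against 24.1 and 21.5 CPM in WT libraries, and 1 of 4 was lower. The 10 markers of cycling cells summed to 632 and 641 CPM in Susd2-/- libraries, against 491 and 482 CPM in WT libraries, and 8 of 10 were higher. The 6 CD8 T cell markers summed to 3526 and 3335 CPM in Susd2-/- libraries, against 3909 and 3897 CPM in WT libraries, and 3 of 6 were lower. Of the other lists, 1 of 7 B cell markers and 1 of 3 tested dendritic cell markers were higher, 1 of 2 tested erythroid markers was lower, and no CD4 T cell or neutrophil marker passed. In these bulk samples, fewer cells of a type and less RNA per cell cannot be told apart. At day 3 the macrophage markers Adgre1, C1qa, C1qc, Vcam1 and Spic had 0 counts in all 4 libraries, and no marker list had a gene past the test between genotypes. The chi-square for each degree of freedom between the counts of the 2 libraries of a group was larger in the Susd2-/- day 3 group than the 12.5 of the WT day 3 group. It was 6.30 in the Susd2-/- day 0 group, against 3.37 in the WT day 0 group. Between sequencing lanes of 1 library it was 3.01 to 3.17, so the WT day 0 libraries alone stood near the difference between lanes. The chi-square can rise with depth, and the groups differed in depth, so it does not rank the groups by their spread. Counts of genes are also given with both day 0 groups reduced to 1 library each, a fit in which all of the spread comes from the day 3 libraries and the day 0 groups are assumed to vary like them. Leaving out 1 library makes the same assumption for the library that remains in its group. Whether the libraries of a group are from separate mice is not labelled, so the p-values speak of the spread among libraries, which may be technical.

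SREBP factors bind the sterol regulatory element, often beside a box bound by the factor NF-Y. Promoter stretches of 5 genes are shown, 4 of the sterol route that carry such letters (Hmgcs1, Mvk, Hsd17b7 and Sc5d) and the efflux gene Abca1, whose RNA moved in the other direction with the culture. Each stretch holds 150 bases before the gene start on the gene's own strand, from the RefSeq promoters of the GRCm38 build. Capitals mark the sterol regulatory element (TCACNCCAC) and the NF-Y box (CCAAT, or ATTGG read on the other strand).
Hmgcs1 (chr13:119690201-119690350, plus strand): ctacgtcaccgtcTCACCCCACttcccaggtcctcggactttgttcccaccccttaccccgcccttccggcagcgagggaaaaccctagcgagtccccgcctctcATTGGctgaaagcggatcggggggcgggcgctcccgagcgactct
Mvk (chr5:114444119-114444268, plus strand): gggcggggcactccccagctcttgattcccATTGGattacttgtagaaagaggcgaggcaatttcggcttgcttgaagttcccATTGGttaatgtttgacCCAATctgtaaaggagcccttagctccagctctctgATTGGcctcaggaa
Hsd17b7 (chr1:169969242-169969391, minus strand): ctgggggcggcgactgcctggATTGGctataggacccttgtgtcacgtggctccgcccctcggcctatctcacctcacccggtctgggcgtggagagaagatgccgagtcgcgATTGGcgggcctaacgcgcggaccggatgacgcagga
Sc5d (chr9:42264301-42264450, minus strand): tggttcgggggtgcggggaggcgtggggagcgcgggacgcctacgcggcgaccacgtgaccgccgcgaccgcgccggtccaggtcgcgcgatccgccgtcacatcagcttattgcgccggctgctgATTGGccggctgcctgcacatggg
Abca1 (chr4:53159896-53160045, minus strand): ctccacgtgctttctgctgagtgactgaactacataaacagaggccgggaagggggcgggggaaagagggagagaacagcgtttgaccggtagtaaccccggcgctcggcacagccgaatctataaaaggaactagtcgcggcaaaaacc
The Hmgcs1 stretch holds the element 137 bases before the start and 1 NF-Y box. Mvk holds 4 NF-Y boxes, Hsd17b7 holds 2, Sc5d holds 1 and Abca1 holds 0. The stretches of Cyp51, Idi1 and Insig1, not shown, also hold 0, and these genes rose, so 0 boxes do not set Abca1 apart. RefSeq promoters of 300 bases, 250 before and 50 after the start, were matched for 26 of the 34 genes. Of these 26 genes, 1 (Hmgcs1) held TCACNCCAC on either strand, a share of 3.85%, against 1.38% of the 10581 tested genes with a promoter. The NF-Y box CCAAT was found in 20 of 26 genes (76.9%), against 42.9% of the tested genes. It was absent from Abca1, Acaca, Acat2, Elovl6, Fads2 and Scap, and of these all but Abca1 rose with the culture. The GC box GGGCGG was found in 22 of 26 (84.6%), against 65.9%, and the E-box CACGTG in 6 of 26 (23.1%), against 11.5%. These are matches of letters in a window and show no binding.

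Most of these genes were higher after 3 days with the peptide, in both genotypes. In Susd2-/- cells 30 of 34 were higher at day 3 than at day 0 and 2 were lower. In WT cells 28 were higher and 3 were lower. A gene counts as changed where its Benjamini-Hochberg adjusted p, over all 16057 genes in edgeR's quasi-likelihood test, is below 0.05. Of all tested genes, 36.7% were higher and 39.7% lower at day 3 in Susd2-/- cells, and 36.1% were higher and 39% lower in WT cells. A fold of at least 2 upward was passed by 67.6% of the 34 genes in each genotype, against 23.4% of all tested genes in Susd2-/- cells and 22.6% in WT cells. The 34 genes together summed to 5388 and 5314 CPM in Susd2-/- libraries at day 3, against 1431 and 1431 CPM at day 0. In WT libraries they summed to 5064 and 5346 CPM at day 3, against 1447 and 1457 CPM at day 0. The 2 genotypes' day comparisons use separate libraries. The markers of cycling cells moved with these genes, and all 10 were higher at day 3 in both genotypes. They summed to 5333 and 5420.4 CPM in Susd2-/- libraries at day 3, against 632 and 641 CPM at day 0, and to 5379 and 5257 CPM in WT libraries at day 3, against 491 and 482 CPM at day 0. All 6 CD8 T cell markers were lower at day 3 in both genotypes, with sums of 1797 and 1859 CPM in Susd2-/- libraries, against 3526 and 3335 CPM at day 0, and of 1855 and 1918 CPM in WT libraries, against 3909 and 3897 CPM at day 0. The part of these shifts in the day 3 differences was not tested.

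**Figure D1:**
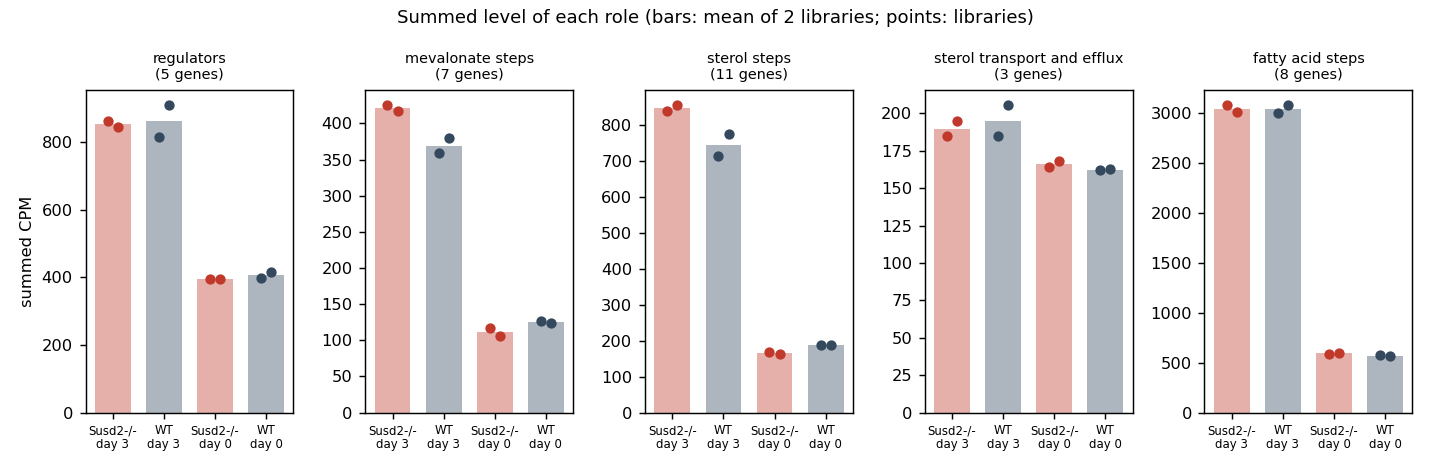
Summed CPM of the genes of each role (y axis) in the 4 groups (x axis); bars are the mean of 2 libraries and points are the libraries. The sterol steps stand at 839 and 856 CPM in Susd2-/- and 713 and 775 CPM in WT at day 3, against 168 and 163 CPM and 189 and 187 CPM in the same genotypes at day 0.

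Among the regulators, Insig1, which holds SCAP and the SREBP precursors in the endoplasmic reticulum and is itself an SREBP target, rose most. Insig1 had 167 and 168 CPM in Susd2-/- cells at day 3, against 50.2 and 47.5 CPM at day 0, a log2 fold change of 1.78 ± 0.085 (SE). In WT cells it had 134 and 163 CPM at day 3, against 29.5 and 32.1 CPM at day 0, a log2 fold change of 2.27 ± 0.088. The day 3 and day 0 levels did not overlap in either genotype. Srebf2, which encodes the SREBP most tied to sterol genes, changed by 1.31 ± 0.069 on the log2 scale in Susd2-/- cells and by 1.17 ± 0.069 in WT cells. Srebf1, tied more to fatty acid genes, changed by 0.94 ± 0.066 in Susd2-/- cells and 0.81 ± 0.066 in WT cells, and the escort gene Scap by 0.32 ± 0.067 and 0.50 ± 0.068. Insig2, the second INSIG gene, passed the test in Susd2-/- cells at 0.31 ± 0.13 (adjusted p = 0.0384). In WT cells Insig2 was at 0.064 ± 0.13 (adjusted p = 0.668). The Insig2 difference between genotypes in this response did not pass the test (adjusted p = 0.428).

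Of the 7 genes of the mevalonate steps, 6 rose in Susd2-/- cells and 5 in WT cells. Idi1, which isomerises isopentenyl diphosphate, had 96.3 and 94.2 CPM in Susd2-/- cells at day 3, against 6.14 and 6.73 CPM at day 0, and 94.4 and 82.8 CPM in WT cells at day 3, against 9.65 and 7.68 CPM at day 0. Its log2 fold changes of 3.89 ± 0.11 in Susd2-/- cells and 3.35 ± 0.11 in WT cells were the largest of this group. A pseudogene, Gm13502, is 100% identical over 684 bases and had 321 counts over the 8 libraries, against 13837 for Idi1, so a small part of the Idi1 level is uncertain. Hmgcs1, the HMG-CoA synthase gene with the sterol regulatory element printed above, had 180.1 and 179 CPM in Susd2-/- cells at day 3, against 44.4 and 44.0 CPM at day 0. In WT cells Hmgcs1 had 138 and 151 CPM at day 3, against 44.2 and 46.4 CPM at day 0. The log2 fold changes were 2.02 ± 0.071 in Susd2-/- cells and 1.67 ± 0.071 in WT cells. The thiolase gene Acat2 rose by 1.59 in Susd2-/- cells and 1.07 in WT cells on the log2 scale, and phosphomevalonate kinase, Pmvk, by 2.01 and 1.99. Acat2 is uncertain, because 445 bases are 98.7% identical to Tcp1, which had 167427 counts against 9616 for Acat2, and 1477 bases are 97.7% identical to Acat3, which had 188. Farnesyl diphosphate synthase, Fdps, rose by 1.63 and 1.51, but its row had 1329 counts over the 8 libraries and its pseudogene Gm3571, 98.9% identical over 1062 bases, had 1740, so its level is uncertain. Mvk, the mevalonate kinase, rose in Susd2-/- cells at 1.04 ± 0.19 and was at 0.41 ± 0.19 in WT cells (adjusted p = 0.0556). Mvd, the decarboxylase after it, passed in neither genotype, with 26.2 and 22.5 CPM in Susd2-/- cells at day 3, against 25.0 and 19.7 CPM at day 0, and 18.2 and 23.9 CPM in WT cells at day 3, against 25.3 and 22.6 CPM at day 0.

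The sterol steps held the largest changes of the cholesterol route. Sqle, the squalene epoxidase, had 144 and 143 CPM in Susd2-/- cells at day 3, against 8.10 and 7.04 CPM at day 0, a log2 fold change of 4.24 ± 0.088. In WT cells Sqle had 129.8 and 134 CPM at day 3, against 10.8 and 10.3 CPM at day 0, a log2 fold change of 3.64 ± 0.084. Cyp51, the lanosterol demethylase, had 279 and 290.1 CPM in Susd2-/- cells at day 3, against 17.6 and 14.8 CPM at day 0, and 225 and 246 CPM in WT cells at day 3, against 20.7 and 21.3 CPM at day 0. All day 3 libraries stood far above all day 0 libraries for both genes, with log2 fold changes of 4.13 ± 0.086 for Cyp51 in Susd2-/- cells and 3.49 ± 0.083 in WT cells. The sterol reductase gene Hsd17b7 rose by 2.63 in Susd2-/- cells and 2.02 in WT cells, methylsterol oxidase Msmo1 by 2.17 and 1.38, and lanosterol synthase Lss by 2.01 and 1.94. Sc5d, a sterol desaturase, rose by 1.90 and 1.46, and squalene synthase Fdft1 by 1.90 and 1.57. The isomerase Ebp rose by 0.89 and 0.72, the last reductase, Dhcr7, by 0.80 and 0.57, and the demethylation gene Nsdhl by 0.84 in Susd2-/- cells, and it passed in WT cells as well (95% interval 0.82 to 1.37). Tm7sf2, another sterol reductase, was the exception at -0.59 ± 0.21 in WT cells (adjusted p = 0.0148) and -0.079 ± 0.20 in Susd2-/- cells (adjusted p = 0.727). The WT fall of Tm7sf2 did not pass the test without WT day 0 library 4 or without WT day 3 library 1. Tm7sf2 shares 532 exon bases with Vps51 on the same strand, and Fdft1 shares 774 with Ctsb on the opposite strand. Cyp51 shares 166 with Akap9, also on the opposite strand, so part of the counts of these 3 genes is uncertain.

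The efflux pumps moved the other way. Abcg1, which exports cholesterol to high-density lipoprotein, had 9.83 and 10.1 CPM in Susd2-/- cells at day 3, against 103 and 103 CPM at day 0, a log2 fold change of -3.37 ± 0.10. In WT cells Abcg1 had 11.4 and 14.3 CPM at day 3, against 100.1 and 95.8 CPM at day 0, a log2 fold change of -2.93 ± 0.10. Abca1, the pump whose promoter is printed above, had 11.1 and 12.0 CPM in Susd2-/- cells at day 3, against 25.2 and 31.9 CPM at day 0, and 9.01 and 15.1 CPM in WT cells at day 3, against 30.7 and 32.1 CPM at day 0. Day 3 levels of both pumps were below all day 0 levels, and the Abca1 log2 fold changes were -1.30 ± 0.20 and -1.39 ± 0.20. Macrophages also express these pumps, and the 12 macrophage markers summed to 5.05 and 6.28 CPM in Susd2-/- libraries at day 3, against 153 and 146 CPM at day 0, and to 4.91 and 8.10 CPM in WT libraries at day 3, against 73.0 and 71.9 CPM at day 0. The part of macrophage RNA in the fall of the pumps was not tested. Stard4, which carries cholesterol between membranes inside the cell, rose by 2.30 in Susd2-/- cells and 2.36 in WT cells.

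All 8 fatty acid genes rose in both genotypes. Scd2, a stearoyl-CoA desaturase that makes monounsaturated fatty acids, had 919 and 906 CPM in Susd2-/- cells at day 3, against 29.1 and 31.2 CPM at day 0, and 826 and 958 CPM in WT cells at day 3, against 38.2 and 39.6 CPM at day 0. Its log2 fold change was 4.92 ± 0.082 in Susd2-/- cells and 4.52 ± 0.081 in WT cells. Scd1, its neighbour on chromosome 19, had 56.7 and 68.7 CPM in Susd2-/- cells at day 3, against 0.949 and 1.47 CPM at day 0, and 52.0 and 80.9 CPM in WT cells at day 3, against 0.125 and 0.0341 CPM at day 0. Its fitted log2 fold changes were 5.70 ± 0.34 in Susd2-/- cells and 9.60 ± 0.50 in WT cells, the WT value resting on 5 counts at day 0. Scd1 and Scd2 transcripts are 95.5% identical over 623 bases, so a small part of the Scd2 counts could stand in the Scd1 row. Scd1 had 5 counts in the WT day 0 libraries beside 2383 for Scd2, and 3899 beside 52657 at day 3. In Susd2-/- libraries it had 73 beside 1833 at day 0 and 5172 beside 73341 at day 3. Fads2, a desaturase of polyunsaturated fatty acids, had 81.7 and 64.1 CPM in Susd2-/- cells at day 3, against 0.822 and 1.06 CPM at day 0, and 67.7 and 99.6 CPM in WT cells at day 3, against 0.437 and 0.410 CPM at day 0. Its neighbour Fads1 rose by 2.27 in Susd2-/- cells and 2.24 in WT cells. Fatty acid synthase, Fasn, rose by 2.46 ± 0.066 and 2.50 ± 0.066, and acetyl-CoA carboxylase, Acaca, by 2.63 ± 0.079 and 2.35 ± 0.078. The elongase Elovl6 rose by 1.54 and 0.85, and Acly, which makes cytosolic acetyl-CoA from citrate, by 0.86 and 1.14.

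Levels can be set between genes only per length, as CPM per kilobase of exons. At day 3 Scd2 was the most abundant of the 34, at 167 ± 1.62 CPM per kilobase in Susd2-/- cells and 163 ± 17.2 in WT cells (SD, n = 2 each). Fasn followed at 102 ± 3.02 and 102 ± 8.14, and Acly at 96.4 ± 0.418 and 98.8 ± 3.40, and these last 2 did not differ beyond their spread in WT cells. At day 0 Acly stood first, at 53.3 ± 0.381 CPM per kilobase in Susd2-/- cells and 44.9 ± 1.71 in WT cells, and Scd2 stood at 5.52 ± 0.262 and 7.12 ± 0.180. Scd1 and Fads2 were the lowest at day 0. Scd1 stood at 0.247 ± 0.0752 in Susd2-/- cells and 0.0163 ± 0.0131 in WT cells, and Fads2 at 0.285 ± 0.0508 and 0.129 ± 0.00595, so in Susd2-/- cells the 2 did not differ beyond their spread.

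**Figure D2:**
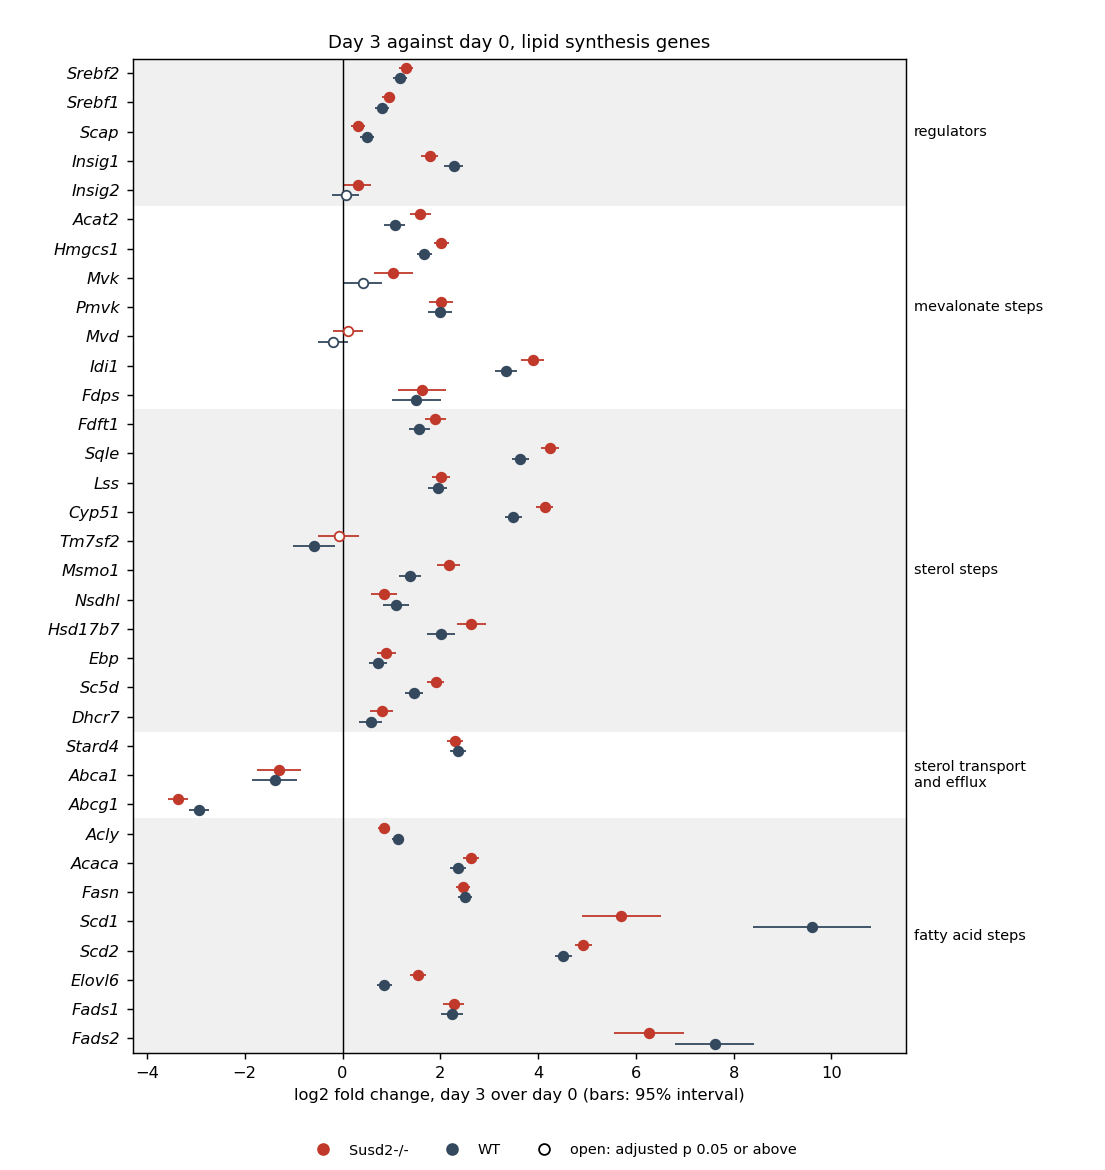
Log2 fold change at day 3 over day 0 (x axis) of each gene (rows, by role) in Susd2-/- cells (red) and WT cells (dark blue), with 95% intervals; open points did not pass the test. Nearly all points lie right of 0, with Scd1 and Fads2 farthest, and Abca1 and Abcg1 lie left of 0 in both genotypes.

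At day 0 the genotypes differed in 14 of the 34 genes (41.2%), against 23.6% of all tested genes. This excess describes a set chosen with earlier results known. In Susd2-/- cells 11 were lower, against 12.1% of all tested genes, and 3 were higher, against 11.5%. The 11 lower genes were Srebf2, Mvk, Idi1, Sqle, Cyp51, Msmo1, Hsd17b7, Sc5d, Acaca, Scd2 and Elovl6, and the 3 higher genes were Insig1, Acly and Scd1. The median log2 fold change of the 34, Susd2-/- over WT, was -0.13, and that of all tested genes was 0.0075. By role, 5 of 11 genes of the sterol steps were lower and 0 higher, 2 of 7 of the mevalonate steps were lower and 0 higher, and 3 of 8 of the fatty acid genes were lower and 2 higher. Of the regulators 1 of 5 was lower and 1 higher, and none of the 3 transport and efflux genes passed. The count was lower when any 1 of the day 0 libraries was left out, and so were the calls among all tested genes. Each of these fits leaves 1 library in its group, so they cannot show whether the result rests on particular libraries. With each day 0 group counted as 1 library, and the spread taken from day 3 alone, 3 genes passed, namely Insig1, Sqle and Elovl6. That fit has no measure of the day 0 spread and does not set these 3 apart from the others. Fitted on the 4 day 0 libraries alone, 19 of the 34 genes passed, 5 higher and 14 lower, and 5627 of all genes did.

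Insig1 had the smallest adjusted p of the 34. It lies on the plus strand of chromosome 5 (GRCm38, 28071363 to 28078662) and had 50.2 and 47.5 CPM in Susd2-/- libraries, against 29.5 and 32.1 CPM in WT libraries. The groups did not overlap, and the log2 fold change was 0.67 ± 0.088 (adjusted p = 2.88e-05). Insig1 was higher in Susd2-/- cells in all 18 alternative analyses. Srebf2, the gene of the factor that INSIG proteins hold back, had 155 and 159 CPM in Susd2-/- libraries, against 176 and 191 CPM in WT libraries. Its fold change was small, -0.22 ± 0.068 (adjusted p = 0.0244), and it did not pass the test without Susd2-/- library 3, Susd2-/- library 4 or WT library 4. Srebf1, Scap and Insig2 did not pass, at -0.14 ± 0.067, 0.17 ± 0.068 and -0.26 ± 0.13.

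Mvk, on the plus strand of chromosome 5 (114444269 to 114460591), was the most reduced gene of the mevalonate steps. Mvk had 7.37 and 6.25 CPM in Susd2-/- libraries, against 11.1 and 11.5 CPM in WT libraries, a log2 fold change of -0.73 ± 0.19 (adjusted p = 0.0114). Idi1 had 6.14 and 6.73 CPM in Susd2-/- libraries, against 9.65 and 7.68 CPM in WT libraries, at -0.43 ± 0.13 (adjusted p = 0.0165). For both genes the Susd2-/- levels lay below the WT levels. Mvk did not pass without Susd2-/- library 4 or WT library 4, and Idi1 did not pass without either Susd2-/- library or without WT library 3. Hmgcs1 stood at 44.4 and 44.0 CPM in Susd2-/- libraries, against 44.2 and 46.4 CPM in WT libraries, with a log2 fold change of -0.035 ± 0.072 and a 95% interval of -0.19 to 0.12. Acat2 was at -0.27 ± 0.11, Pmvk at -0.06 ± 0.12, Mvd at -0.10 ± 0.15 and Fdps at 0.15 ± 0.25, and none of these 4 passed.

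Within the sterol steps the lower genes lay at several positions along the route. Sqle, which makes the first oxygenated intermediate, had 8.10 and 7.04 CPM in Susd2-/- libraries, against 10.8 and 10.3 CPM in WT libraries, a log2 fold change of -0.48 ± 0.10 (adjusted p = 0.00133). Msmo1, on the minus strand of chromosome 8 (64718139 to 64733792), had 11.6 and 14.7 CPM in Susd2-/- libraries, against 18.7 and 20.0 CPM in WT libraries, at -0.57 ± 0.12 (adjusted p = 0.00172). Cyp51 had 17.6 and 14.8 CPM in Susd2-/- libraries, against 20.7 and 21.3 CPM in WT libraries, at -0.37 ± 0.087 (adjusted p = 0.00448). In all 3 genes both Susd2-/- libraries were below both WT libraries. Hsd17b7 had 5.38 and 5.50 CPM in Susd2-/- libraries, against 8.25 and 7.00 CPM in WT libraries, at -0.49 ± 0.15. Sc5d had 19.2 and 18.4 CPM in Susd2-/- libraries, against 23.4 and 22.3 CPM in WT libraries, at -0.28 ± 0.089. These last 2 genes were the less secure of the 5, since Sc5d lost its call in 9 of 18 alternative analyses and Hsd17b7 in 6. Msmo1 did not pass without Susd2-/- library 3, and Cyp51 did not pass without Susd2-/- library 4. Nsdhl was the one sterol gene on the higher side with groups that did not overlap, at 13.0 and 14.0 CPM in Susd2-/- libraries, against 10.8 and 10.3 CPM in WT libraries, and it did not pass (log2 fold change 0.35 ± 0.13, adjusted p = 0.0618), though it did in 4 alternative analyses (adjusted p from 0.0389 to 0.0453). Fdft1, Lss, Tm7sf2, Ebp and Dhcr7 did not pass either, with log2 fold changes of -0.14, 0.13, -0.12, -0.22 and -0.045. The 11 genes of the sterol steps summed to 168 and 163 CPM in Susd2-/- libraries, against 189 and 187 CPM in WT libraries.

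**Figure D3:**
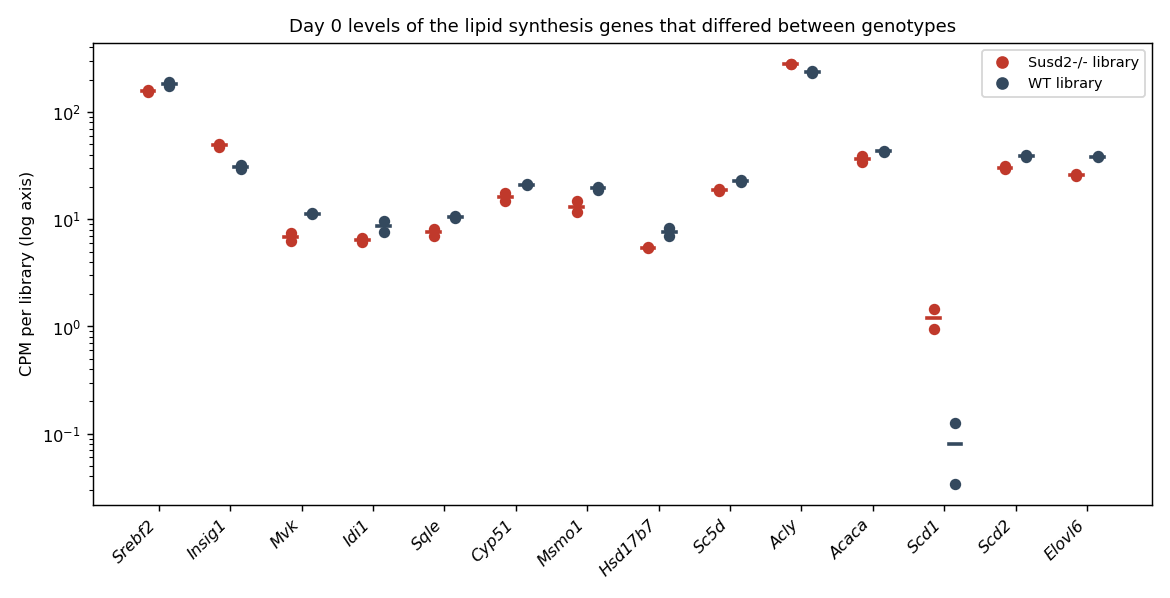
CPM in each day 0 library (y axis, log axis) of the 14 genes that passed the test between genotypes at day 0 (x axis); points are libraries, short lines the mean of 2. Susd2-/- points (red, left of each pair) lie above the WT points (dark blue) for Insig1, Acly and Scd1 and below them for the other 11 genes.

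The fatty acid genes split. Elovl6, which lengthens saturated fatty acids and lies on the plus strand of chromosome 3 (129532355 to 129638495), had 26.2 and 25.3 CPM in Susd2-/- libraries, against 39.1 and 37.9 CPM in WT libraries. Its log2 fold change of -0.58 ± 0.078 (adjusted p = 3.16e-05) passed in all 18 alternative analyses. Scd2 had 29.1 and 31.2 CPM in Susd2-/- libraries, against 38.2 and 39.6 CPM in WT libraries, at -0.37 ± 0.077 (adjusted p = 0.00182). Acaca had 33.9 and 39.3 CPM in Susd2-/- libraries, against 42.4 and 43.8 CPM in WT libraries, at -0.23 ± 0.079 (adjusted p = 0.0374). The Acaca call was lost in 10 of 18 alternative analyses. One of these added the counts of its pseudogene Gm5182, 99.2% identical over 6118 bases (adjusted p = 0.0588). Acly, on the minus strand of chromosome 11 (100476353 to 100528000), moved the other way, at 279.7 and 283 CPM in Susd2-/- libraries, against 243 and 231 CPM in WT libraries. Its log2 fold change was 0.25 ± 0.059 (adjusted p = 0.00513), and it did not pass without Susd2-/- library 3, WT library 3 or WT library 4. Fasn, at 204 and 201 CPM in Susd2-/- libraries, against 196 and 201 CPM in WT libraries, did not pass (log2 fold change 0.029 ± 0.064, 95% interval -0.10 to 0.16).

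Scd1 was almost absent from WT cells at day 0. It had 30 and 43 counts in the Susd2-/- libraries, against 4 and 1 counts in the WT libraries. The ratio of the summed counts at equal depth was 14.7, with a 95% interval of 6.02 to 46.6 that treats the counts as independent. Lanes of 1 library differed by more than independent counts would, with a chi-square of 3.01 to 3.17 for each degree of freedom. The interval is therefore likely too narrow, as is that of Fads2 below. The edgeR test gave an adjusted p of 0.0323, and Scd1 lost its call when any 1 of the 4 day 0 libraries was left out. Fads2 had 26 and 31 counts in the Susd2-/- libraries, against 14 and 12 in the WT libraries, a ratio of 2.21 (1.37 to 3.66), and did not pass (adjusted p = 0.257). Fads2 did pass, on the higher side, in 4 alternative analyses, with DESeq2 (adjusted p = 0.0107), with no low-count filter (0.00744) and without either WT day 3 library (0.00621 without library 1 and 0.00668 without library 2). Fads1 was at 0.14 ± 0.11 and did not pass. Macrophage markers and markers of cycling cells were higher in the same Susd2-/- libraries, at the summed levels given above, and their part in the Scd1, Acly and Insig1 differences was not tested. The same holds for the lower NK cell and CD8 T cell markers and the 11 lower genes.

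The efflux and transport genes showed no call at day 0. Abcg1 had 103 and 103 CPM in Susd2-/- libraries, against 100.1 and 95.8 CPM in WT libraries, a log2 fold change of 0.077 ± 0.083 with a 95% interval of -0.10 to 0.25. Abca1 was at -0.14 ± 0.19 (interval -0.57 to 0.30) and Stard4 at 0.045 ± 0.08 (interval -0.12 to 0.21).

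At day 3 none of the 34 genes passed between the genotypes in edgeR's test, against 0.137% of all tested genes. Susd2 itself, with few counts, did not pass at day 3 either (log2 fold change -3.96 ± 0.89, edgeR adjusted p = 0.113). At an unadjusted p below 0.05 there were 7 of the 34 genes (20.6%), against 7.9% of all tested genes. Of the 7, Insig1, Acat2, Hmgcs1, Lss, Cyp51 and Msmo1 were on the higher side in Susd2-/- cells and Abcg1 on the lower side. DESeq2 called 1 and limma voom called 1, in each case Hmgcs1. Hmgcs1 had 180.1 and 179 CPM in Susd2-/- libraries, against 138 and 151 CPM in WT libraries, a log2 fold change of 0.31 ± 0.067 (edgeR adjusted p = 0.0866). Its groups did not overlap, and it passed in edgeR when Susd2-/- library 1 or WT library 2 was left out. Cyp51 had 279 and 290.1 CPM in Susd2-/- libraries, against 225 and 246 CPM in WT libraries, at 0.27 ± 0.072 (adjusted p = 0.208), and passed without WT library 2. Abcg1 had 9.83 and 10.1 CPM in Susd2-/- libraries, against 11.4 and 14.3 CPM in WT libraries, at -0.36 ± 0.10 (adjusted p = 0.268). Abcg1 and Fads2 passed, on the lower side, when WT library 1 was left out. Insig1, the most different gene at day 0 by adjusted p, had 167 and 168 CPM in Susd2-/- libraries, against 134 and 163 CPM in WT libraries, at 0.18 ± 0.081 (adjusted p = 0.606).

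In the sterol steps 10 of 11 log2 fold changes were above 0, with a median of 0.18, against 0 for all tested genes. None of the 11 passed, and they share the same libraries, so they are not 11 separate observations. The sterol steps summed to 839 and 856 CPM in Susd2-/- libraries, against 713 and 775 CPM in WT libraries. WT library 2 stood above WT library 1 in 10 of these 11 genes. Fasn at -0.0091 ± 0.063 (interval -0.14 to 0.12), Scd2 at 0.033 ± 0.068 (interval -0.11 to 0.18) and Acly at -0.036 ± 0.059 (interval -0.16 to 0.087) had narrow intervals. Scd1, with 56.7 and 68.7 CPM in Susd2-/- libraries, against 52.0 and 80.9 CPM in WT libraries, had a wide one, -0.62 to 0.46. The spread between libraries of a group was larger at day 3, with a biological coefficient of variation of 10.1%, against 5.38% at day 0. The model was fitted over both days, and the Fasn SE between genotypes was 0.063 at day 3 and 0.064 at day 0. The day 3 intervals thus do not carry this larger spread and may be too narrow.

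**Figure D4:**
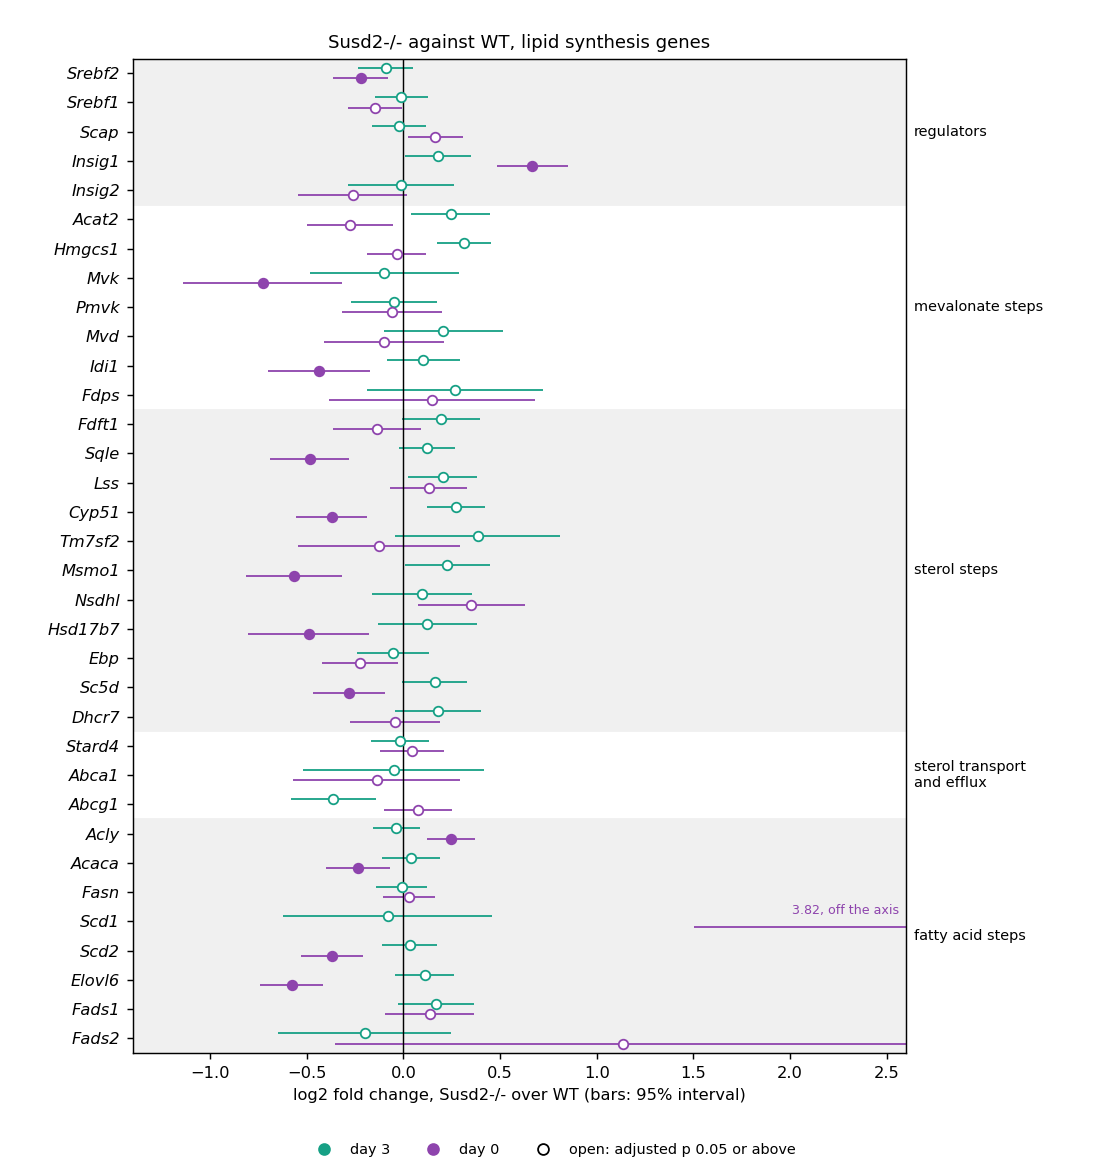
Log2 fold change, Susd2-/- over WT (x axis), of each gene (rows, by role) at day 3 (green) and day 0 (purple), with 95% intervals; filled points passed the test and the Scd1 day 0 value, off the axis, is written. Filled points occur at day 0 alone, most of them left of 0, while the day 3 points of the sterol steps lie mostly right of 0.

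Whether the genotype difference itself changed with the day was tested as an interaction, which equals the day 3 log2 fold change minus the day 0 one. It passed for 13 of the 34 genes, against 13.5% of all tested genes. It was above 0 in 10, against 6.6% of all tested genes, and below 0 in 3, against 6.87%. The 10 were Acat2, Hmgcs1, Idi1, Sqle, Cyp51, Msmo1, Hsd17b7, Sc5d, Scd2 and Elovl6, and the 3 were Insig1, Abcg1 and Acly. A fit without 1 of the day 0 libraries leaves 1 library in its group, and calls among all tested genes fell in each such fit. The count of 13 was lower in each of them too. With each day 0 group counted as 1 library it was 4, namely Sqle, Cyp51, Msmo1 and Elovl6, again with the spread from the day 3 libraries alone. Because the interaction and the day 0 comparison share the day 0 libraries, their calls are not separate evidence.

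For Msmo1 the genotype log2 fold change was 0.23 ± 0.10 at day 3, against -0.57 ± 0.12 at day 0, an interaction of 0.79 ± 0.16 (adjusted p = 0.00238). For Elovl6 it was 0.11 ± 0.073 at day 3, against -0.58 ± 0.078 at day 0, an interaction of 0.69 ± 0.11 (adjusted p = 0.000331). For Cyp51 it was 0.27 ± 0.072 at day 3, against -0.37 ± 0.087 at day 0, an interaction of 0.64 ± 0.11 (adjusted p = 0.000922). These 3 genes kept the call in all 17 alternative analyses of the interaction, and in each the response to the culture was larger in Susd2-/- cells. Sqle had an interaction of 0.61 ± 0.12, Idi1 of 0.54 ± 0.15, Sc5d of 0.44 ± 0.12 and Scd2 of 0.40 ± 0.10. Acat2 and Hmgcs1, which did not pass at day 0, had interactions of 0.52 ± 0.14 and 0.35 ± 0.10, and in both the day 3 value was above 0. Hsd17b7, at 0.61 ± 0.19, lost its call in 12 of 17 alternative analyses. Mvk, with an interaction of 0.63 ± 0.27, did not pass (adjusted p = 0.136).

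In the opposite direction, Insig1 had an interaction of -0.49 ± 0.12 (adjusted p = 0.0110), with genotype log2 fold changes of 0.18 ± 0.081 at day 3, against 0.67 ± 0.088 at day 0. The Insig1 interaction did not pass without Susd2-/- day 0 library 3, WT day 0 library 3 or WT day 3 library 2. Acly was at -0.28 ± 0.083 and Abcg1 at -0.44 ± 0.13, and these calls were lost in 10 and 11 of 17 alternative analyses. Scd1 had the largest value of the 34, -3.90 ± 0.99, which just missed the threshold (adjusted p = 0.0512) and rests on the 4 and 1 counts of the WT libraries at day 0. The 10 markers of cycling cells moved too, with 8 of 10 interactions below 0 past the test and 0 above. Of the 6 CD8 T cell markers 2 passed above 0, the direction of the 10 genes, namely Cd3d at 0.41 ± 0.084 and Cd3g at 0.50 ± 0.089. Of the macrophage markers 1 of 12 (Cd68) passed below 0, as did 1 of 7 B cell markers. The part of these markers in the results was not tested.

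The other genes of the pathway were followed in a list of 61, of which 58 were tested. At day 0, 7 of 58 (12.1%) were higher and 8 (13.8%) lower in Susd2-/- cells, against 11.5% and 12.1% of all tested genes, so the list was near the background. Mlxip, which encodes a glucose-sensing transcription factor, had 229 and 251 CPM in Susd2-/- libraries, against 138 and 147 CPM in WT libraries, a log2 fold change of 0.75 ± 0.067. Dgat1, which makes triacylglycerol, had 33.8 and 35.0 CPM in Susd2-/- libraries, against 14.4 and 17.4 CPM in WT libraries, at 1.11 ± 0.13. Both were well above their WT libraries, and both had interactions below 0, -0.72 ± 0.10 for Mlxip and -1.17 ± 0.18 for Dgat1. On the lower side were Fnta, a subunit of protein farnesyltransferase that uses a product of the mevalonate steps, at -0.38 ± 0.078, and Rnf139, a sterol-sensing ubiquitin ligase, at -0.40 ± 0.10. At day 3 none of the 58 passed between genotypes in edgeR's test. An unadjusted p below 0.05 was found for 4 of the 58, a share below the 7.9% of all tested genes. Those 4 were Mcat at -0.33 ± 0.11, Lpin1 at 0.34 ± 0.14, Mid1ip1 at -0.31 ± 0.13 and Prkaa2 at -1.96 ± 0.91, the last with under 1 CPM in every library. The interaction passed for 8 of 58 (13.8%), against 13.5% of all tested genes, with 5 above 0 and 3 below. Among them were Fnta at 0.53 ± 0.11 and the lysosomal lipase Lipa at 0.40 ± 0.11.

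Over the 3 days these other genes did not move in 1 direction. In Susd2-/- cells 34 of 58 rose (58.6%) and 21 fell (36.2%), against 36.7% and 39.7% of all tested genes. In WT cells 33 rose (56.9%) and 22 fell (37.9%), against 36.1% and 39%. Mylip, an LXR target whose product degrades lipoprotein receptors, had 1.55 and 1.50 CPM in Susd2-/- cells at day 3, against 80.4 and 76.5 CPM at day 0, and 1.39 and 1.20 CPM in WT cells at day 3, against 78.7 and 75.9 CPM at day 0. Its log2 fold changes of -5.69 ± 0.12 in Susd2-/- cells and -5.89 ± 0.13 in WT cells had the same sign as those of Abca1 and Abcg1. Lrp8, a lipoprotein receptor, rose by 3.05 ± 0.12 in Susd2-/- cells and 3.41 ± 0.12 in WT cells. The acyl-CoA synthetases Acsl4 and Acsl5, which activate fatty acids, rose by 2.46 and 1.94 in Susd2-/- cells and by 2.36 and 1.83 in WT cells.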

How the data were processed

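RNA from 8 libraries of CD8+ T cells was analysed, 2 in each of 4 groups, from 15 sequencing lanes. The deposited table holds raw gene counts made by the authors, whole numbers with no normalization, per the file header. Subread 2.0.1, SAMtools 1.10, HISAT2 2.1.0 and fastp 0.23.2 stand in the submitters' processing notes, with GRCm38 as the build. The library kit was stranded, per the labels' protocols. How strand and multiply aligned reads were handled, and which annotation was used, is not given in the sources used here, so genes with near-identical copies or overlapping neighbours are uncertain.

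Lanes of a library were summed. WT day 3 library 2 had 1 lane and the other 7 libraries had 2. The labels number lanes as replicates, and the lane suffix in the sample descriptions shows which lanes belong to 1 library. Genes were kept by edgeR's filterByExpr (16057 of 27019, at least 99.9% of each library's counts). One model over the 4 groups was fitted with edgeR 4.0.16 under R 4.3.3, with TMM scaling, glmQLFit and the robust quasi-likelihood test, with 4 residual degrees of freedom. Benjamini-Hochberg adjustment ran over all tested genes within a comparison, with a threshold of 0.05. Errors of log2 fold changes are standard errors (SE), computed from the fold change and its F statistic. DESeq2 1.42.0 and limma 3.58.1 (voom) were alternatives. Further alternatives were other scalings, no low-count filter, only the 4 libraries compared, libraries left out, 1 lane, and a replicate block. Adding pseudogene counts to the gene they resemble was chosen after seeing the data. Gene positions and lengths are from GENCODE M21 (GRCm38) and promoter stretches from RefSeq (GRCm38.p6), ending before the gene start of both. All 34 genes are named, and of the other pathway genes up to 4 of smallest adjusted p per comparison. The genes and lists were chosen with earlier results of these data known.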

Additional observations from a re-analysis of the deposited data

Results flagged for a closer look

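A difference between the genotypes that itself differed between day 3 and day 0, by edgeR's interaction test, marked 13 of the 34 genes. The interactions on the log2 scale were 0.79 for Msmo1, 0.69 for Elovl6, 0.64 for Cyp51, 0.61 for Hsd17b7, 0.61 for Sqle, 0.54 for Idi1, 0.52 for Acat2, 0.44 for Sc5d, 0.40 for Scd2 and 0.35 for Hmgcs1. They were -0.49 for Insig1, -0.44 for Abcg1 and -0.28 for Acly. In the 10 genes with a value above 0, the genotype difference was more positive at day 3 than at day 0, and for 8 of them Susd2-/- cells had passed on the lower side at day 0. Insig1 and Acly are the reverse, with a difference above 0 at day 0. For Abcg1 the log2 fold change was -0.36 at day 3, against 0.077 at day 0, and neither passed. With 2 libraries in a group, no library could be tested as an outlier.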

How the results depend on the processing

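At day 0 the count of 14 genes was 9 with limma voom, 9 with the first lane of each library and 3 with each day 0 group counted as 1 library. It ran from 6 to 16 with 1 library left out. At day 3 the count of 0 was 1 with DESeq2, 1 with limma voom and 2 with no low-count filter (Hmgcs1 and Cyp51), and ran from 0 to 2 with 1 library left out. The interaction count of 13 was 7 with the first lane and 4 with each day 0 group counted as 1, and ran from 6 to 14 with 1 library left out. The lower counts with a library left out or groups counted as 1 come from fits with fewer libraries, in which a group of 1 library is assumed to vary like the others, and the cause of the others was not tested. Fits of only the 4 libraries compared called 19 genes at day 0, 5 higher and 14 lower, and 0 at day 3. The counts of the day comparisons stayed within 1.5 times under all alternatives run. Scaling by total counts shifted the median log2 fold change of all genes by -0.18 in WT and -0.20 in Susd2-/- cells between the days. No called log2 fold change changed sign under any alternative run. Of 252 day 0 fold changes under the alternatives 56 lost the call, as did 61 of 221 for the interaction, 4 of 527 for the days in WT and 9 of 544 in Susd2-/- cells. Library numbers are shared by the genotypes within a day, but same-numbered libraries did not deviate together (correlations 0.0086 at day 0 and -0.010 at day 3). With 2 libraries in a group this check cannot show that they were not paired. With the replicate block 14 genes passed at day 0, 0 at day 3 and 12 in the interaction. Scd1 passed in the interaction in 8 alternatives, the block among them. Of the genes not called at day 0, Fads2 passed in 4 alternatives, Nsdhl in 4, Acat2 in 3, Scap in 2, and Srebf1 and Ebp in 1 each. Depth limits Scd1 and Fads2 at day 0.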

Other observations

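The make-up of the pathway's RNA differed between the days. Scd2 took 17.1% and 17.1% of the counts of the 34 genes in the Susd2-/- libraries at day 3, against 2.04% and 2.18% at day 0, and 16.3% and 17.9% in the WT libraries at day 3, against 2.64% and 2.72% at day 0. Acly took 9.41% and 9.60% in the Susd2-/- libraries at day 3, against 19.5% and 19.7% at day 0. In the WT libraries Acly took 10.0% and 9.99% at day 3, against 16.8% and 15.8% at day 0. Fasn took 19.8% to 23.4% in the 4 day 3 libraries, against 13.6% to 14.2% in the 4 day 0 libraries. Without Fasn, Scd2 and Acly, the other 31 genes summed to 918 and 916 CPM in Susd2-/- libraries at day 0, against 969.5 and 986 CPM in WT libraries. The whole set made up 0.501% to 0.505% of all counts in Susd2-/- libraries and 0.470% to 0.499% in WT libraries at day 3, and 0.153% to 0.156% and 0.153% to 0.154% at day 0. When the counts of 3 processed pseudogenes were added to Fdps, its log2 fold change between the days was 2.16 in Susd2-/- cells and 2.17 in WT cells, larger than with its own row alone.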
